A study of Homo sapiens with 16 samples.

Results

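The genes described here are 33 human enzymes that make, convert and salvage nucleotides, taken by gene symbol from a table of 28277 genes. They were listed by route: 12 purine, 5 pyrimidine and 6 deoxynucleotide genes, 4 salvage enzymes, 4 nucleotide kinases and 2 enzymes of folate one-carbon metabolism. The RNA samples were 3 INA6 libraries with KANSL2 knockdown and 3 INA6 libraries with a non-targeting single guide RNA, and 3 JJN3 libraries with KANSL2 knockdown and 3 JJN3 libraries with a non-targeting single guide RNA. INA6 is a human myeloma line that grows with interleukin 6, and JJN3 is a human myeloma line that does not need it; all 12 RNA libraries are labelled as untreated plasma cells. The KANSL2 protein belongs to the NSL complex around the histone acetyltransferase KAT8. The comparison asked how the level of each enzyme's transcript differed when KANSL2 was lowered. Beyond the guide RNA of the controls, the labels used here do not give how the knockdown was made. How long it lasted before RNA was taken is not given either. The labels do not say that the libraries came from separate cultures, so the p-values measure the spread between these libraries only.

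Cells build purines step by step on a ribose phosphate until inosine monophosphate is formed, which then branches to adenine and guanine nucleotides. Pyrimidines are built as a free ring first, joined to ribose phosphate as orotate and converted to uridine, cytidine and, for DNA, thymidine nucleotides. Ribonucleotide reductase turns ribonucleotides into deoxynucleotides, salvage enzymes recover free bases and nucleosides, and folate carries the one-carbon units used in purine rings and in thymidylate. Dividing cells, myeloma cells among them, draw heavily on these routes, and several of the enzymes are targets of drugs used against leukaemia or in immune suppression.

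All values are rlog values, a log2-scale transform of normalised read counts that shrinks genes with few reads, so a difference of 1 is a doubling before shrinkage. Differences are knockdown minus non-targeting with n = 3 libraries per group, percentages of change are from the rlog difference, and SE is the standard error from limma, a linear model over all tested genes. The values of KANSL2 itself were 7.71, 7.60 and 7.76 in the INA6 knockdown libraries, against 8.06, 8.02 and 8.16 in the INA6 non-targeting libraries, a difference of −0.39 ± 0.06 (SE), or 76.4% of the non-targeting level, with an adjusted p of 3.06e-05. In JJN3 KANSL2 had 6.00, 5.98 and 6.06 in the knockdown libraries, against 7.25, 7.24 and 7.19 in the non-targeting libraries, a difference of −1.21 ± 0.06 (SE), or 43.1% of the non-targeting level, with an adjusted p of 1.48e-16. KANSL2 was thus lower in every knockdown library of both lines. Of 8 plasma cell markers, 8 passed the filter on low values in each line, of which 2 were called higher and 5 lower in INA6 knockdown and 4 higher and 1 lower in JJN3 knockdown. Of all tested genes 24.7% were called higher and 24.0% lower in INA6, and 25.5% higher and 25.5% lower in JJN3. The list mean of these markers was 11.81 to 11.92 in INA6 knockdown and 12.11 to 12.17 in INA6 non-targeting libraries, and 11.69 to 11.74 in JJN3 knockdown and 11.54 to 11.59 in JJN3 non-targeting libraries. Of 5 stromal markers 0 passed the filter, and of 5 myeloid markers 1 passed in each line. The T and NK cell list had 2 of 5 past the filter in INA6 and 1 of 5 in JJN3, where CD3E was lower in the knockdown; the B cell list had 2 of 5 in each line, with MS4A1 higher and CD79B lower in JJN3 knockdown. In JJN3 the list mean was 1.99 to 2.04 in knockdown and 2.00 to 2.01 in non-targeting libraries for the B cell list, and 1.26 to 1.27 in knockdown and 1.27 to 1.33 in non-targeting libraries for the T and NK cell list. The B cell list mean in INA6 was 4.58 to 4.60 in knockdown and 4.60 to 4.62 in non-targeting libraries. That of the T and NK cell list in INA6 was 1.63 to 1.66 in knockdown and 1.66 to 1.72 in non-targeting libraries. Listed at 0 in every library were MS4A1, S100A8, FCGR3A and LUM in INA6 and CD3D, LYZ, FCGR3A, DCN and LUM in JJN3. The part of these markers in the results was not tested. No counts were given, so depth per library is unknown.

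Promoter sequences from the RefSeq table of GRCh38.p14, the build the submitters name as hg38, were found for 31 of the 33 genes, ADSL and IMPDH2 being named only. Each window runs from 250 bases before to 50 after a start site, 5′ to 3′ on the gene's strand, and so covers the upstream region and the start of the transcript. The motifs searched, on both strands, were the E-box CACGTG, which MYC with MAX can bind, the E2F-like letters and the CCAAT box. A window held E2F-like letters if it had the form TTGGCGC read in this direction or its reverse complement, or the form TTCCCGC likewise, or else the variant TTCGCGC on either strand, or lastly the variant TTGCCGC on either strand. The E-box was in a window of 7 of the 31 genes (22.6%), against 8.77% of 27305 genes in the table. The E2F-like letters were in 12 of 31 (38.7%), against 15.3% of all genes. CCAAT was in 12 of 31 (38.7%), against 39.7% of all genes. A gene with more windows has more places for a match, so shares by window are given too. The E-box was in 14.9% of the 47 enzyme windows, against 7.26% of all 35116 windows. For the E2F-like letters the shares were 27.7% and 13.0%, and for CCAAT 31.9% and 34.6%. The genes with an E-box were PPAT, PAICS, ATIC, DHODH, DCK, NME1 and MTHFD1. PPAT and PAICS share the same E-box, which is counted for both in the shares by gene and by window. Those with E2F-like letters were PRPS1, PRPS2, GART, PAICS, ADSS2, RRM1, RRM2, TYMS, DUT, TK1, DCK and GUK1. These are matches of letters and no binding was measured. The 27305 genes were not limited to those tested here, and promoters were not matched in base composition. The shares therefore cannot set the enzymes apart from other expressed genes. The 6 windows below belong to the genes that the comparisons turn on. PPAT has 1 window, RRM2, CTPS1 and CTPS2 have 2 each, PAICS has 3 and DUT has 4. Printed is the first listed window with an E-box or E2F-like letters, or else the first listed. The printed windows were thus chosen for holding a match where there was one. The E2F-like letters of PAICS lie in a window that is not printed. PPAT and PAICS are a head-to-head pair whose windows share 236 bases and 1 E-box, RRM2 and DUT both carry E2F-like letters and differ between the lines, and CTPS1 and CTPS2 are paralogs that moved in opposite directions in JJN3 and hold neither motif. Capitals mark the E-box or the E2F-like letters on either strand.
PPAT promoter, chr4:56435566-56435865, minus strand: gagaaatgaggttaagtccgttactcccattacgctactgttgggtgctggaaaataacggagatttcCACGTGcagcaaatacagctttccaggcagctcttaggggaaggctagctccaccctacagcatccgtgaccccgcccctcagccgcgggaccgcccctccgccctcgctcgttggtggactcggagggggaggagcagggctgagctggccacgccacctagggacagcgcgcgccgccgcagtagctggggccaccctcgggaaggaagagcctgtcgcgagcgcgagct
PAICS promoter, chr4:56435502-56435801, plus strand: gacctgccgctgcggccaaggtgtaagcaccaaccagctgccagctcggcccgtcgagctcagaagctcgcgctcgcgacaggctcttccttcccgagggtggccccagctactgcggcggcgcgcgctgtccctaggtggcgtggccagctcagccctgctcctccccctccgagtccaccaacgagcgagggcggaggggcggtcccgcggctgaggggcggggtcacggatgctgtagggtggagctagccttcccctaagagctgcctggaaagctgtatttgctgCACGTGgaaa
RRM2 promoter, chr2:10122318-10122617, plus strand: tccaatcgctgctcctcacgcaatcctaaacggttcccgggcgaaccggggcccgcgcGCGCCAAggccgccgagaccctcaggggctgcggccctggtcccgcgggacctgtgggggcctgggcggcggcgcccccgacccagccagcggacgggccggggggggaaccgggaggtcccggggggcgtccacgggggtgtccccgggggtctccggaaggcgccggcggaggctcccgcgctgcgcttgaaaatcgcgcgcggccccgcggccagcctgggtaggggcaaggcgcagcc
DUT promoter, chr15:48331947-48332246, plus strand: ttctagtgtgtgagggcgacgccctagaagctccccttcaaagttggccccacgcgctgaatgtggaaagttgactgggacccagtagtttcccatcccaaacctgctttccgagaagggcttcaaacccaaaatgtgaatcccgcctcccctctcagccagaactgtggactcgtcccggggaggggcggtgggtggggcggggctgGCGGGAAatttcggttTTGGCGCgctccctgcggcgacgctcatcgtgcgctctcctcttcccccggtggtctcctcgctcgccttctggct
CTPS1 promoter, chr1:40979446-40979745, plus strand: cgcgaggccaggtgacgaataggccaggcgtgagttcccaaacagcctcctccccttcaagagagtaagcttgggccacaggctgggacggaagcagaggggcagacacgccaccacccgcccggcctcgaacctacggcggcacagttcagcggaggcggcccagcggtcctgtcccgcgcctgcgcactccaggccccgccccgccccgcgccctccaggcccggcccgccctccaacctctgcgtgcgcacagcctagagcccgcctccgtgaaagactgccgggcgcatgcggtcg
CTPS2 promoter, chrX:16712620-16712919, minus strand: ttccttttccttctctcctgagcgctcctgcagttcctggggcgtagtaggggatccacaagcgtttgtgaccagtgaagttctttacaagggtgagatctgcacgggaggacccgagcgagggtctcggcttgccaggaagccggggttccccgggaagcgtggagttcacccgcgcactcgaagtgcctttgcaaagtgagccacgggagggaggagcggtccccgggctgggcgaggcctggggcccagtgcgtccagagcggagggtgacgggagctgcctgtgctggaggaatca
The start sites of the shown PPAT and PAICS windows lie 137 bases apart, and the shared E-box is at bases −182 to −177 from the PPAT start site and at bases 40 to 45 from the PAICS start site. The RRM2 match lies at −192 to −186, and the DUT matches lie at −42 to −36 and −26 to −20. No printed match overlaps another.

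Most of the enzymes had higher transcript levels after KANSL2 knockdown in both lines, by small amounts. In bulk libraries fewer cells with a transcript and less of it per cell cannot be told apart. In INA6 25 of 32 tested genes rose, 0 fell and 7 were not called, while 48.6% of all 12511 tested genes were called, 24.7% higher and 24.0% lower. In JJN3 20 of 33 rose, 2 fell and 11 were not called, while 51.0% of all 12282 tested genes were called, 25.5% higher and 25.5% lower. A gene was called when its adjusted p, from limma over every tested gene of the line, was below 0.05, and genes with a mean rlog below 3 over the 6 libraries were not tested. The median difference, knockdown minus non-targeting, was 0.20 over the 32 tested enzymes in INA6 and 0.15 over the 33 in JJN3, against 0.0009 and 0.0010 over all tested genes. All 3 knockdown values lay above all 3 non-targeting values for 23 of 32 enzymes in INA6, where 27.7% of all genes did so, and for 23 of 33 in JJN3, where 28.4% did. The 3 knockdown values lay below the non-targeting ones for 0 enzymes in INA6 (27.4% of all genes) and for CTPS2 alone in JJN3 (27.7%).

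The largest rises in INA6 were those of NME2 (0.46), CTPS1 (0.40), PFAS (0.37) and NME1 (0.37). In JJN3 they were those of CTPS1 (0.45), IMPDH2 (0.43), APRT (0.38) and RRM2 (0.36). Centring each library on its median moved the background to 31.2% higher and 19.2% lower in INA6 and to 30.7% higher and 20.9% lower in JJN3, and the enzymes to 27 higher and 0 lower and to 22 higher and 1 lower. Cyclic loess normalisation, which removes a trend with expression level and was chosen after the data were seen, gave 20 higher and 1 lower in INA6 (23.3% and 23.7% of all genes) and 17 higher and 3 lower in JJN3 (23.9% and 24.2%). Each gene's difference with its interval is in the plot of changes by route, and the cumulative plot sets the enzymes beside all tested genes.

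**Figure D1:**
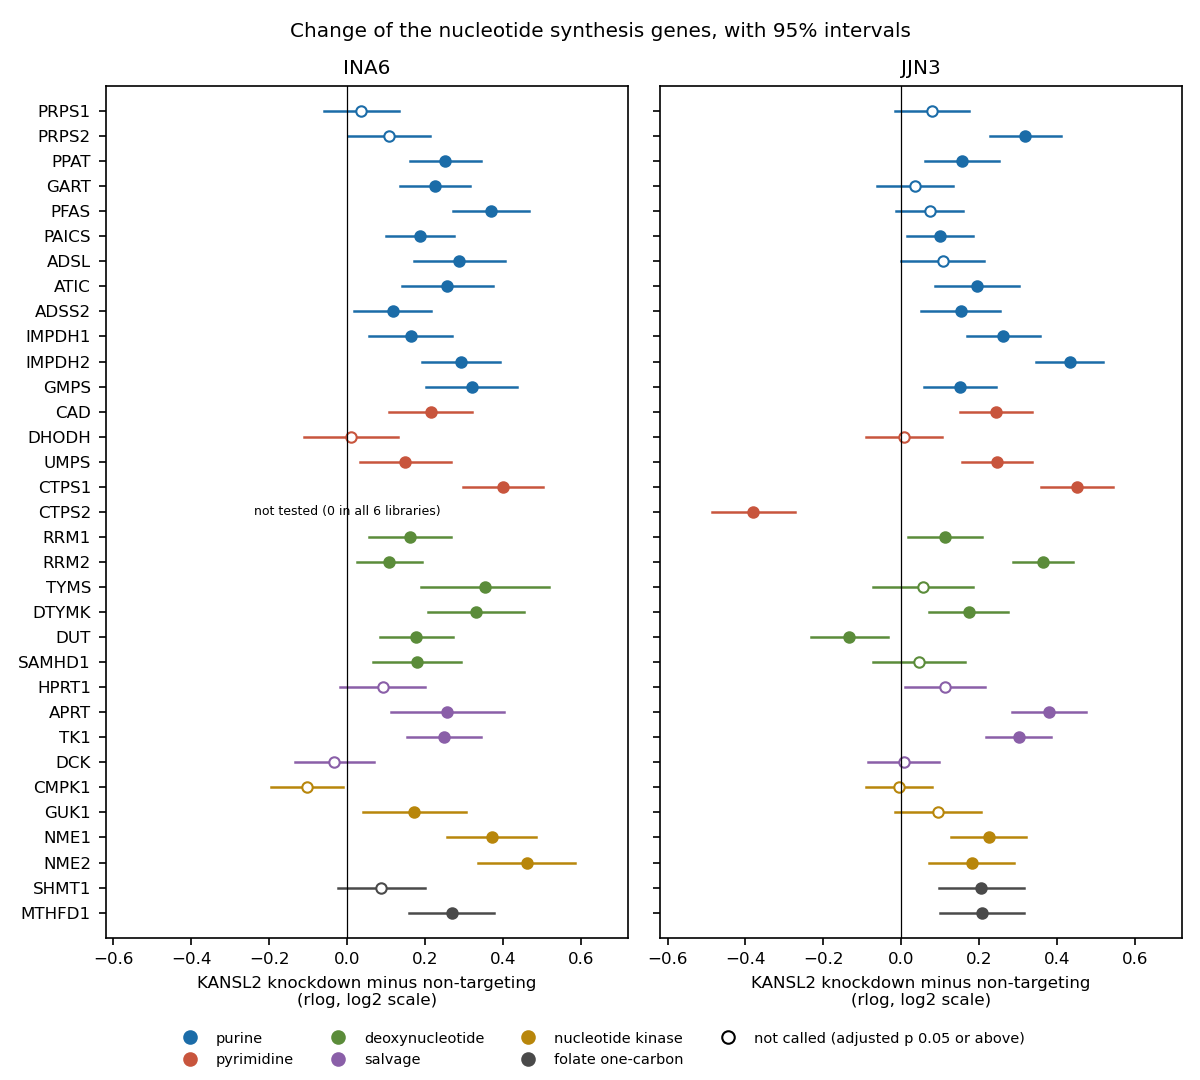
KANSL2 knockdown minus non-targeting on the rlog (log2) scale for each enzyme in INA6 and JJN3, with 95% intervals from limma, coloured by route; open points were not called. The points lie mostly to the right of 0, with 25 genes called higher in INA6 and 20 in JJN3, and CTPS2 and DUT to the left in JJN3.

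**Figure D2:**
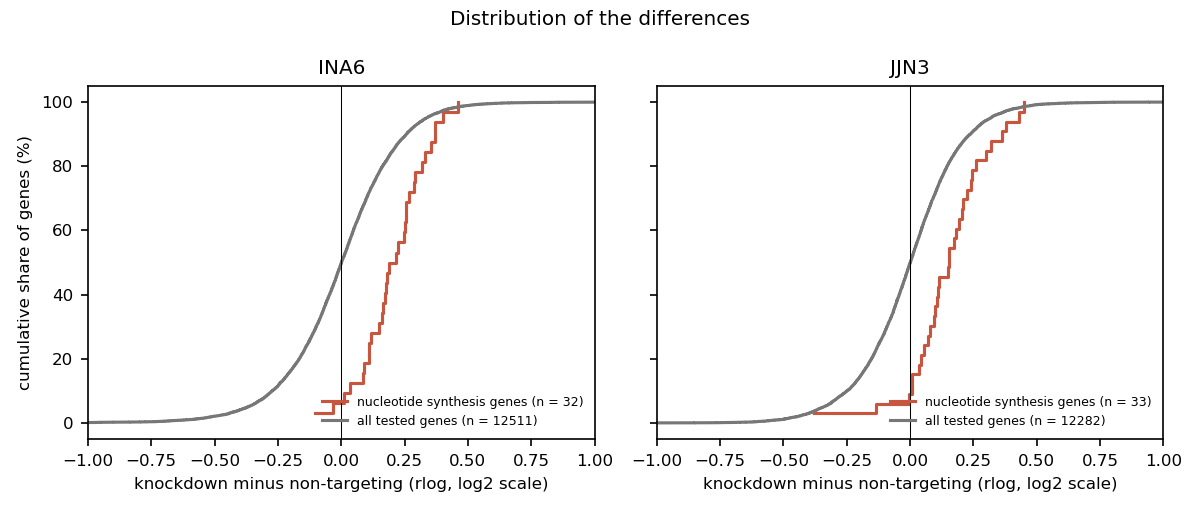
Cumulative share of genes (%) against the difference, knockdown minus non-targeting on the rlog (log2) scale, for the enzymes and for all tested genes of each line. The enzyme curve lies to the right of the curve of all genes, with medians of 0.20 in INA6 and 0.15 in JJN3.

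Transcripts of purine synthesis were raised along most of the route in INA6, where 10 of 12 genes rose, and at 8 of 12 genes in JJN3. None fell in either line. Of all tested genes 24.7% rose and 24.0% fell in INA6, and 25.5% rose and 25.5% fell in JJN3. The route starts with the ribose phosphate donor, made by PRPS1 and PRPS2. PRPS1 was not called in either line (0.04 with a 95% interval of −0.06 to 0.13 in INA6, and 0.08 with a 95% interval of −0.02 to 0.17 in JJN3). PRPS2 had 10.22, 10.16 and 10.07 in the INA6 knockdown libraries, against 10.11, 9.98 and 10.03 in the INA6 non-targeting libraries, groups that overlap, with a difference of 0.11 ± 0.05 (SE) and an adjusted p of 0.0851. It was called in INA6 with each library centred on its median (0.14, adjusted p = 0.0231) and without knockdown library 3 (0.15, adjusted p = 0.0192). In JJN3 PRPS2 had 10.50, 10.42 and 10.34 in the knockdown libraries, against 10.09, 10.13 and 10.07 in the non-targeting libraries, a difference of 0.32 ± 0.04 (SE), or 24.7% higher, with an adjusted p of 6.45e-07. The groups of PRPS2 did not overlap in JJN3.

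PPAT, the first committed enzyme of the route, had 10.49, 10.50 and 10.45 in the INA6 knockdown libraries, against 10.21, 10.22 and 10.26 in the INA6 non-targeting libraries. The groups did not overlap, with a difference of 0.25 ± 0.04 (SE), or 19.1% higher, with an adjusted p of 7.59e-05. In JJN3 it had 9.90, 9.81 and 9.73 in the knockdown libraries, against 9.69, 9.64 and 9.64 in the non-targeting libraries, again without overlap, and a difference of 0.16 (adjusted p = 0.00584). PAICS, the enzyme of a later pair of steps whose start site faces that of PPAT, had 12.39, 12.35 and 12.28 in the INA6 knockdown libraries, against 12.15, 12.12 and 12.19 in the INA6 non-targeting libraries, a difference of 0.19 (adjusted p = 0.000934). In JJN3 PAICS had 12.01, 11.88 and 11.91 in the knockdown libraries, against 11.81, 11.80 and 11.89 in the non-targeting libraries, groups that overlap by a small margin, and a difference of 0.10 (adjusted p = 0.0463). The listed spans of the 2 genes share 25109 bases of opposite strands, as the PAICS span begins before its shown start site. The labels do not give whether reads were counted by strand, so how far their reads can be told apart is unknown. Spans include introns, here and in the overlaps given for other genes. The JJN3 call of PAICS was lost under quantile scaling (−0.02, adjusted p = 0.768), with no filter on low values (0.10, adjusted p = 0.0786), without the variance trend (0.10, adjusted p = 0.0974), with cyclic loess normalisation (−0.01, adjusted p = 0.856) and without knockdown library 1 or non-targeting library 1 or 2 (difference 0.06 to 0.09, adjusted p = 0.139 to 0.207). The INA6 call of PAICS was lost with cyclic loess normalisation (0.09, adjusted p = 0.0977), and the JJN3 call of PPAT under quantile scaling (0.10, adjusted p = 0.0963) and with cyclic loess normalisation (0.10, adjusted p = 0.0844).

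GART, which carries several steps of the route on a single protein, had 10.48, 10.48 and 10.49 in the INA6 knockdown libraries, against 10.28, 10.23 and 10.26 in the INA6 non-targeting libraries. Its INA6 groups were well apart, with a difference of 0.23 (adjusted p = 0.000212). In JJN3 GART had 9.50, 9.37 and 9.38 in the knockdown libraries, against 9.43, 9.40 and 9.31 in the non-targeting libraries, groups that overlap, and a difference of 0.04 (adjusted p = 0.558). PFAS, which adds nitrogen from glutamine, had 10.82, 10.89 and 10.94 in the INA6 knockdown libraries, against 10.58, 10.48 and 10.47 in the INA6 non-targeting libraries. This was the largest rise among the purine genes of INA6, a difference of 0.37 ± 0.05 (SE), or 29.2% higher, with an adjusted p of 1.79e-06. In JJN3 PFAS had 10.05, 10.07 and 10.06 in the knockdown libraries, against 9.95, 10.04 and 9.99 in the non-targeting libraries. These JJN3 values lay just apart, and the difference of 0.07 ± 0.04 (SE) was not called, with an adjusted p of 0.156. PFAS shares 449 bases with CTC1.

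ADSL, which acts in the route and again in making AMP, had 8.66, 8.76 and 8.65 in the INA6 knockdown libraries, against 8.47, 8.35 and 8.39 in the INA6 non-targeting libraries, a difference of 0.29 (adjusted p = 0.000246). In JJN3 it had 8.27, 8.29 and 8.40 in the knockdown libraries, against 8.20, 8.20 and 8.24 in the non-targeting libraries, and the difference of 0.11 was not called (adjusted p = 0.0898), though it was called higher with each library centred on its median (0.13, adjusted p = 0.0336), under quantile scaling (0.12, adjusted p = 0.0495) and without knockdown library 1 (0.13, adjusted p = 0.0467). ADSL overlaps SGSM3 over 16934 bases. ATIC, which closes the purine ring, had 9.00, 9.00 and 9.02 in the INA6 knockdown libraries, against 8.87, 8.70 and 8.67 in the INA6 non-targeting libraries, a difference of 0.26 (adjusted p = 0.00078). In JJN3 ATIC had 8.47, 8.36 and 8.48 in the knockdown libraries, against 8.30, 8.17 and 8.25 in the non-targeting libraries, a difference of 0.19 (adjusted p = 0.00274). ATIC was higher in every knockdown library of both lines; it overlaps FN1, on the opposite strand, over 7728 bases.

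After inosine monophosphate, ADSS2 opens the branch to AMP. It had 9.74, 9.70 and 9.72 in the INA6 knockdown libraries, against 9.57, 9.58 and 9.66 in the INA6 non-targeting libraries, a difference of 0.12 (adjusted p = 0.0488), and 9.15, 9.20 and 9.04 in the JJN3 knockdown libraries, against 9.02, 8.91 and 9.00 in the JJN3 non-targeting libraries, a difference of 0.15 (adjusted p = 0.0113). The INA6 call was lost under quantile scaling (0.09, adjusted p = 0.138), with no filter on low values (0.12, adjusted p = 0.0772), without the variance trend (0.12, adjusted p = 0.0612), with the replicate block (0.12, adjusted p = 0.107), with cyclic loess normalisation (0.08, adjusted p = 0.195) and without knockdown library 1, 2 or 3 or non-targeting library 1 or 2 (difference 0.10 to 0.13, adjusted p = 0.0637 to 0.161). The JJN3 call was lost without knockdown library 2 or non-targeting library 2 (difference 0.12, adjusted p = 0.0856 to 0.097).

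The branch to GMP opens with IMPDH1 and IMPDH2, paralogs that catalyse the rate-limiting step and are the target of mycophenolate. IMPDH2 had 9.64, 9.68 and 9.62 in the INA6 knockdown libraries, against 9.38, 9.35 and 9.32 in the INA6 non-targeting libraries, a difference of 0.29 ± 0.05 (SE), or 22.4% higher, with an adjusted p of 3.66e-05. In JJN3 IMPDH2 had 10.21, 10.22 and 10.18 in the knockdown libraries, against 9.75, 9.79 and 9.77 in the non-targeting libraries. The JJN3 groups stood well apart, with the largest difference among the purine genes of that line, 0.43 ± 0.04 (SE), or 34.9% higher, with an adjusted p of 1.04e-09. IMPDH1 had 11.00, 11.09 and 11.18 in the INA6 knockdown libraries, against 11.01, 10.92 and 10.85 in the INA6 non-targeting libraries, with knockdown library 1 below non-targeting library 1, and a difference of 0.16 (adjusted p = 0.0115). That call was lost under quantile scaling (0.09, adjusted p = 0.155), with cyclic loess normalisation (0.08, adjusted p = 0.195) and without knockdown library 3 or non-targeting library 3 (difference 0.12, adjusted p = 0.0574 to 0.0813). In JJN3 IMPDH1 had 9.28, 9.30 and 9.38 in the knockdown libraries, against 9.04, 9.05 and 9.08 in the non-targeting libraries, a difference of 0.26 ± 0.05 (SE), or 19.9% higher, with an adjusted p of 2.23e-05. Both paralogs thus rose in JJN3 without overlap of the groups. GMPS, which finishes GMP, had 8.87, 8.97 and 8.90 in the INA6 knockdown libraries, against 8.67, 8.61 and 8.51 in the INA6 non-targeting libraries, a difference of 0.32 (adjusted p = 7.92e-05). In JJN3 GMPS had 9.18, 9.19 and 9.17 in the knockdown libraries, against 9.04, 9.01 and 9.04 in the non-targeting libraries, a difference of 0.15 (adjusted p = 0.00616). The GMPS groups did not overlap in either line.

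In the pyrimidine route CAD, UMPS and CTPS1 rose in both lines, DHODH was not called in either, and CTPS2 fell in JJN3. CAD, which carries the first reactions of the route, had 10.27, 10.35 and 10.34 in the INA6 knockdown libraries, against 10.00, 10.16 and 10.17 in the INA6 non-targeting libraries, a difference of 0.21 ± 0.05 (SE), or 16% higher, with an adjusted p of 0.00155. In JJN3 CAD had 9.99, 10.03 and 10.00 in the knockdown libraries, against 9.67, 9.82 and 9.80 in the non-targeting libraries, a difference of 0.24 (adjusted p = 4.66e-05). DHODH, the mitochondrial enzyme that makes orotate, differed by 0.01 with a 95% interval of −0.11 to 0.13 in INA6 and by 0.01 with a 95% interval of −0.09 to 0.10 in JJN3. UMPS, which turns orotate into UMP, had 8.97, 9.08 and 9.03 in the INA6 knockdown libraries, against 8.78, 8.92 and 8.93 in the INA6 non-targeting libraries, a difference of 0.15 ± 0.06 (SE), or 10.9% higher, with an adjusted p of 0.0323. The INA6 groups of UMPS lay apart by a small margin, and the call was lost with no filter on low values (0.15, adjusted p = 0.0543) and without knockdown library 2 or 3 or non-targeting library 1 (difference 0.10 to 0.15, adjusted p = 0.051 to 0.198). In JJN3 UMPS had 10.06, 10.03 and 10.05 in the knockdown libraries, against 9.74, 9.80 and 9.87 in the non-targeting libraries, a difference of 0.24 ± 0.04 (SE), or 18.5% higher, with an adjusted p of 2.94e-05.

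CTPS1 and CTPS2 both make CTP from UTP, and CTPS1 is the form that proliferating lymphocytes are known to depend on. CTPS1 had 10.20, 10.34 and 10.38 in the INA6 knockdown libraries, against 9.92, 9.90 and 9.90 in the INA6 non-targeting libraries. Its difference was 0.40 ± 0.05 (SE), or 31.9% higher, with an adjusted p of 1.44e-06. In JJN3 CTPS1 had 9.50, 9.57 and 9.54 in the knockdown libraries, against 9.05, 9.07 and 9.13 in the non-targeting libraries, the largest difference among the 33 genes in that line, 0.45 ± 0.05 (SE), or 36.7% higher, with an adjusted p of 2.19e-09. The groups were separate in both lines. CTPS2 moved the other way in JJN3, with 5.43, 5.38 and 5.34 in the knockdown libraries, against 5.79, 5.70 and 5.79 in the non-targeting libraries, a difference of −0.38 ± 0.05 (SE), or 76.9% of the non-targeting level, with an adjusted p of 5.39e-07. In INA6 CTPS2 is listed at 0 in all 6 libraries and was not tested. EIF4A1, a translation factor that every cell uses, is listed at 0 in both lines, so a listed 0 need not mean absence. CTPS2 is unlike EIF4A1 in having values in JJN3. Whether INA6 lacks the CTPS2 transcript was not tested.

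**Figure D3:**
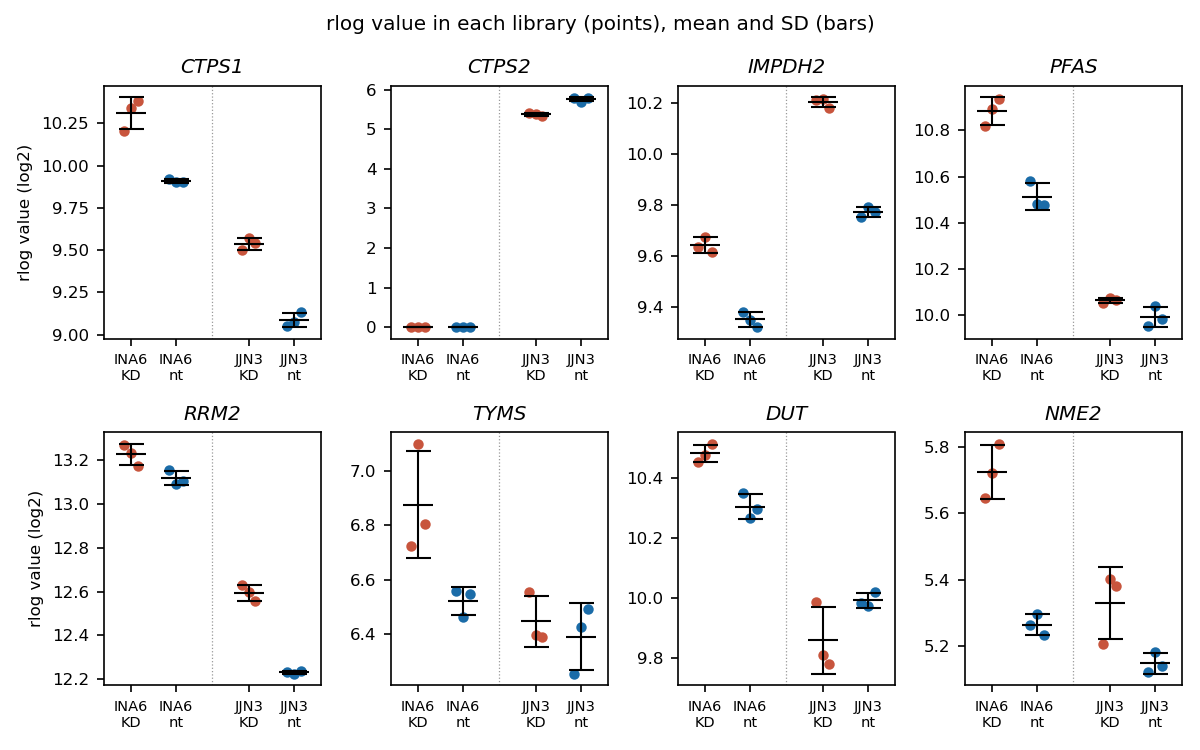
rlog value (log2) in each library for selected enzymes, knockdown (KD) left of non-targeting (nt) in each line, with mean and SD (n = 3). CTPS1 and IMPDH2 are higher in all knockdown libraries of both lines, CTPS2 is lower in JJN3 knockdown and listed at 0 in INA6, and DUT is higher in INA6 knockdown and lower on average in JJN3 knockdown.

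All 6 deoxynucleotide genes rose in INA6, whereas in JJN3 RRM2, DTYMK and RRM1 rose, DUT fell, and TYMS and SAMHD1 were not called. Of all tested genes 24.7% rose in INA6, and 25.5% rose and 25.5% fell in JJN3. Ribonucleotide reductase pairs a large subunit, RRM1, with a small subunit, RRM2, whose level follows S phase. RRM2 had 13.27, 13.23 and 13.17 in the INA6 knockdown libraries, against 13.15, 13.09 and 13.11 in the INA6 non-targeting libraries, groups that lay just apart, with a difference of 0.11 ± 0.04 (SE), or 7.8% higher, with an adjusted p of 0.0298. The INA6 rise depended on the scaling and on single libraries: the call was lost under quantile scaling (0.01, adjusted p = 0.84), without the variance trend (0.11, adjusted p = 0.0821), with the replicate block (0.11, adjusted p = 0.0745), with cyclic loess normalisation (−0.01, adjusted p = 0.876) and without knockdown library 1 or 2 or non-targeting library 2 or 3 (difference 0.09 to 0.10, adjusted p = 0.0793 to 0.12). In JJN3 RRM2 had 12.63, 12.60 and 12.55 in the knockdown libraries, against 12.23, 12.23 and 12.24 in the non-targeting libraries. The JJN3 groups were far apart against their spread, with a difference of 0.36 ± 0.04 (SE), or 28.6% higher, with an adjusted p of 3.93e-09.

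RRM1 had 10.61, 10.61 and 10.51 in the INA6 knockdown libraries, against 10.46, 10.31 and 10.48 in the INA6 non-targeting libraries, a difference of 0.16 (adjusted p = 0.0115). In JJN3 it had 9.41, 9.41 and 9.32 in the knockdown libraries, against 9.31, 9.22 and 9.26 in the non-targeting libraries, a difference of 0.11 (adjusted p = 0.0431). The groups did not overlap in either line. The INA6 call was lost under quantile scaling (0.11, adjusted p = 0.0944), with cyclic loess normalisation (0.09, adjusted p = 0.131) and without knockdown library 2 or non-targeting library 2 (difference 0.11 to 0.14, adjusted p = 0.0583 to 0.117), and the JJN3 call under quantile scaling (0.09, adjusted p = 0.109), with no filter on low values (0.11, adjusted p = 0.0703), without the variance trend (0.11, adjusted p = 0.0521), with cyclic loess normalisation (0.07, adjusted p = 0.197) and without knockdown library 1 or 2 or non-targeting library 2 or 3 (difference 0.09 to 0.11, adjusted p = 0.0823 to 0.176).

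TYMS makes thymidylate from dUMP and is the target of fluorouracil. It had 6.72, 7.10 and 6.81 in the INA6 knockdown libraries, against 6.56, 6.46 and 6.55 in the INA6 non-targeting libraries, and a difference of 0.35 ± 0.08 (SE), or 27.7% higher, with an adjusted p of 0.000873. In JJN3 TYMS had 6.55, 6.40 and 6.39 in the knockdown libraries, against 6.26, 6.43 and 6.49 in the non-targeting libraries, groups that overlap, and a difference of 0.06 (adjusted p = 0.481). TYMS shares 10593 bases with ENOSF1, transcribed from the opposite strand. DTYMK, the kinase that follows TYMS, had 9.89, 10.05 and 10.04 in the INA6 knockdown libraries, against 9.81, 9.60 and 9.58 in the INA6 non-targeting libraries, a difference of 0.33 ± 0.06 (SE), or 25.7% higher, with an adjusted p of 0.000104. In JJN3 DTYMK had 8.68, 8.64 and 8.76 in the knockdown libraries, against 8.50, 8.52 and 8.54 in the non-targeting libraries, a difference of 0.17 ± 0.05 (SE), or 12.7% higher, with an adjusted p of 0.00432. DTYMK was higher in each knockdown library than in any non-targeting library of its line.

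DUT removes dUTP and so supplies dUMP to TYMS. It had 10.45, 10.48 and 10.51 in the INA6 knockdown libraries, against 10.35, 10.26 and 10.30 in the INA6 non-targeting libraries, a difference of 0.18 ± 0.04 (SE), or 13.1% higher, with an adjusted p of 0.00248. In JJN3 DUT had 9.98, 9.81 and 9.78 in the knockdown libraries, against 9.98, 9.97 and 10.02 in the non-targeting libraries, a difference of −0.13 ± 0.05 (SE), or 91.2% of the non-targeting level, with an adjusted p of 0.0208. Knockdown libraries 2 and 3 lay below all the non-targeting ones in JJN3, but knockdown library 1 did not. The JJN3 call was lost with each library centred on its median (−0.11, adjusted p = 0.0627), with no filter on low values (−0.13, adjusted p = 0.0505) and without knockdown library 2 or 3 or non-targeting library 3 (difference −0.12 to −0.09, adjusted p = 0.0751 to 0.118), and the INA6 difference was 0.11 with cyclic loess normalisation, still called. SAMHD1, which breaks down deoxynucleoside triphosphates and so acts against the other enzymes of the group, had 8.89, 8.89 and 8.89 in the INA6 knockdown libraries, against 8.66, 8.66 and 8.80 in the INA6 non-targeting libraries, a difference of 0.18 (adjusted p = 0.00954). Its INA6 call was lost without non-targeting library 1 or 2 (difference 0.16, adjusted p = 0.0528 to 0.057). In JJN3 SAMHD1 had 6.21, 6.28 and 6.18 in the knockdown libraries, against 6.27, 6.18 and 6.09 in the non-targeting libraries. It differed there by 0.04 with a 95% interval of −0.07 to 0.16 and was not called.

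Of the salvage enzymes APRT and TK1 rose in both lines, and HPRT1 and DCK were called in neither. APRT, which recovers adenine, had 9.08, 9.26 and 9.40 in the INA6 knockdown libraries, against 9.08, 9.04 and 8.85 in the INA6 non-targeting libraries, where knockdown library 1 was just above non-targeting library 1, and a difference of 0.26 ± 0.07 (SE), or 19.5% higher, with an adjusted p of 0.00418. In JJN3 APRT had 9.88, 10.00 and 10.06 in the knockdown libraries, against 9.59, 9.64 and 9.58 in the non-targeting libraries, a difference of 0.38 ± 0.05 (SE), or 29.9% higher, with an adjusted p of 8.01e-08. The JJN3 groups of APRT lay well apart. TK1, the thymidine kinase of S phase, had 11.63, 11.71 and 11.76 in the INA6 knockdown libraries, against 11.49, 11.48 and 11.38 in the INA6 non-targeting libraries, a difference of 0.25 ± 0.05 (SE), or 18.8% higher, with an adjusted p of 0.000133; with cyclic loess normalisation it was 0.16, still called. In JJN3 TK1 had 11.18, 11.24 and 11.30 in the knockdown libraries, against 10.96, 10.92 and 10.93 in the non-targeting libraries, a difference of 0.30 ± 0.04 (SE), or 23.2% higher, with an adjusted p of 4.1e-07. All TK1 values of the knockdown libraries were above those of the non-targeting libraries. HPRT1, which recovers hypoxanthine and guanine, differed by 0.09 (adjusted p = 0.16) in INA6 and by 0.11 (adjusted p = 0.0661) in JJN3. With each library centred on its median it was called higher in both lines, by 0.13 (adjusted p = 0.049) in INA6 and by 0.14 (adjusted p = 0.0221) in JJN3. DCK, the deoxycytidine kinase that activates cytarabine and gemcitabine, differed by −0.03 (adjusted p = 0.609) in INA6 and by 0.01 (adjusted p = 0.916) in JJN3.

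The nucleotide kinases split, with NME1 and NME2 raised in both lines, GUK1 raised in INA6 and CMPK1 called in neither. NME1 and NME2 make nucleoside triphosphates from diphosphates and are neighbours on chromosome 17. NME2 had 5.65, 5.72 and 5.81 in the INA6 knockdown libraries, against 5.26, 5.30 and 5.23 in the INA6 non-targeting libraries. This was the largest difference among the enzymes tested in INA6, 0.46 ± 0.06 (SE), or 37.6% higher, with an adjusted p of 2.75e-06. In JJN3 NME2 had 5.21, 5.40 and 5.38 in the knockdown libraries, against 5.12, 5.18 and 5.14 in the non-targeting libraries, a difference of 0.18 ± 0.05 (SE), or 13.3% higher, with an adjusted p of 0.0058. The NME2 groups did not overlap in either line. NME1 had 9.95, 10.15 and 10.02 in the INA6 knockdown libraries, against 9.75, 9.62 and 9.64 in the INA6 non-targeting libraries, a difference of 0.37 ± 0.05 (SE), or 29.3% higher, with an adjusted p of 1.16e-05. In JJN3 NME1 had 9.66, 9.55 and 9.66 in the knockdown libraries, against 9.33, 9.46 and 9.41 in the non-targeting libraries, a difference of 0.22 ± 0.05 (SE), or 16.8% higher, with an adjusted p of 0.000212. All 6209 bases of NME2 lie within the readthrough gene NME1-NME2, which is listed at 0 in both lines, and NME1 and NME2 are similar in sequence, so how reads were shared among the 3 is uncertain.

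GUK1, which phosphorylates GMP and dGMP, had 8.92, 9.11 and 9.24 in the INA6 knockdown libraries, against 8.91, 8.94 and 8.90 in the INA6 non-targeting libraries, a difference of 0.17 ± 0.06 (SE), or 12.7% higher, with an adjusted p of 0.0301. Knockdown library 1 lay within the non-targeting range, and the call was lost with no filter on low values (0.17, adjusted p = 0.0594) and without knockdown library 2 or 3 or non-targeting library 1, 2 or 3 (difference 0.10 to 0.18, adjusted p = 0.062 to 0.186). In JJN3 GUK1 had 8.25, 8.40 and 8.36 in the knockdown libraries, against 8.27, 8.29 and 8.16 in the non-targeting libraries. It differed there by 0.09 ± 0.05 (SE; adjusted p = 0.146). It was called there without knockdown library 1 (0.14, adjusted p = 0.0419). CMPK1, the kinase for UMP and CMP, differed by −0.10 with a 95% interval of −0.20 to −0.01 in INA6 (adjusted p = 0.0632) and by −0.01 with a 95% interval of −0.09 to 0.08 in JJN3 (adjusted p = 0.925). With quantile and cyclic loess normalisation CMPK1 was called lower in both lines, at −0.20 and −0.19 in INA6 and at −0.11 and −0.11 in JJN3, and in INA6 also without knockdown library 1 (−0.15).

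Of the folate enzymes MTHFD1 rose in both lines and SHMT1 was called higher in JJN3. MTHFD1, which makes the formyl folate used in the purine ring, had 9.52, 9.52 and 9.40 in the INA6 knockdown libraries, against 9.28, 9.17 and 9.18 in the INA6 non-targeting libraries, a difference of 0.27 ± 0.05 (SE), or 20.5% higher, with an adjusted p of 0.000241. In JJN3 MTHFD1 had 8.52, 8.40 and 8.57 in the knockdown libraries, against 8.23, 8.31 and 8.33 in the non-targeting libraries, a difference of 0.21 ± 0.05 (SE), or 15.4% higher, with an adjusted p of 0.00168. MTHFD1 was higher in every knockdown library of both lines, and it shares 10920 bases with ZBTB25 on the opposite strand. SHMT1, the cytosolic enzyme that loads folate from serine, had 9.02, 9.11 and 9.14 in the INA6 knockdown libraries, against 9.07, 8.93 and 9.00 in the INA6 non-targeting libraries, groups that overlap, and a difference of 0.09 ± 0.05 (SE) that was not called (adjusted p = 0.185). In JJN3 SHMT1 had 8.29, 8.27 and 8.39 in the knockdown libraries, against 8.08, 8.06 and 8.19 in the non-targeting libraries, a difference of 0.21 ± 0.05 (SE), or 15.3% higher, with an adjusted p of 0.0021.

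Set against each other, the lines had the same call for most of the genes. Of the 33, 18 rose in both lines and 5 (PRPS1, DHODH, HPRT1, DCK and CMPK1) were called in neither. Of the 11137 genes tested in both lines 14.2% rose in both, 12.3% fell in both and 28.9% were called in neither. The same call in both lines was thus also the more common case among all genes. Another 6 (GART, PFAS, ADSL, TYMS, SAMHD1 and GUK1) rose in INA6 and were not called in JJN3, 2 (PRPS2 and SHMT1) rose in JJN3 and were not called in INA6, DUT was called in opposite directions, and CTPS2 could be tested in JJN3 alone. A call in one line and not in the other does not show that the lines differ, so the difference of the 2 changes was tested, INA6 minus JJN3. It was called for 7 of the 32 genes tested in both lines, with 30.0% of 11137 genes called. INA6 minus JJN3 was positive for 5 of them, where 15.6% of all genes were called that way, and negative for 2, where 14.4% were.

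DUT differed most, by 0.31 ± 0.07 (SE; adjusted p = 0.000205), having risen in INA6 and fallen in JJN3. PFAS differed by 0.30 ± 0.06 (SE; adjusted p = 0.00022), TYMS by 0.30 ± 0.10 (SE; adjusted p = 0.0203), NME2 by 0.28 ± 0.08 (SE; adjusted p = 0.00628) and GART by 0.19 ± 0.06 (SE; adjusted p = 0.0207), all with the larger rise in INA6. RRM2 differed by −0.25 ± 0.06 (SE; adjusted p = 0.000289) and PRPS2 by −0.21 ± 0.07 (SE; adjusted p = 0.0138), with the larger rise in JJN3. The 7 were 3 purine genes, 3 deoxynucleotide genes and the nucleotide kinase NME2. The calls of DUT, PFAS, NME2 and RRM2 held in all 18 alternatives. The call of GART was lost under quantile scaling (0.16, adjusted p = 0.0588) and without INA6 non-targeting library 2, JJN3 knockdown library 2 or JJN3 non-targeting library 1 or 2 (difference 0.17 to 0.18, adjusted p = 0.0538 to 0.0788). That of TYMS was lost without INA6 knockdown library 2, INA6 non-targeting library 2, JJN3 knockdown library 2 or 3 or JJN3 non-targeting library 3 (difference 0.19 to 0.27, adjusted p = 0.0507 to 0.157), and that of PRPS2 without INA6 non-targeting library 1 (−0.18, adjusted p = 0.0659). Without INA6 knockdown library 1 the count of enzymes different between lines was 11. ADSL, GMPS, DTYMK, NME1 and PAICS, not called different, were called so in 1 or more of the 18 alternatives. The difference of KANSL2 itself was −0.39 in INA6 and −1.21 in JJN3; its part in these differences was not tested.

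**Figure D4:**
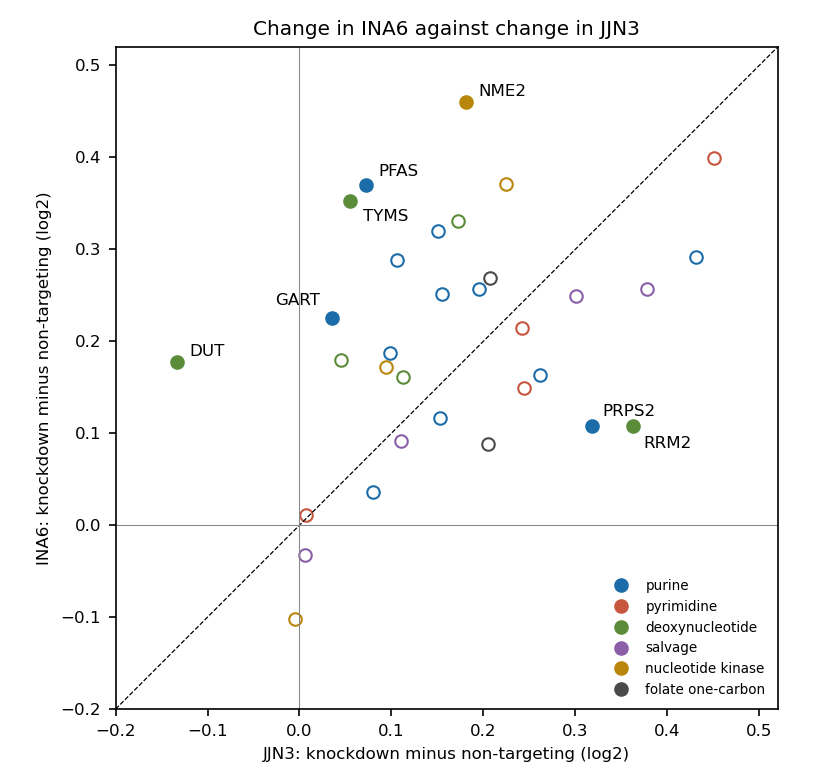
Change in INA6 (vertical axis, log2) against change in JJN3 (horizontal axis, log2), knockdown minus non-targeting, for the 32 enzymes tested in both lines, coloured by route. Most points lie in the upper right, DUT lies left of 0 and above 0, and RRM2 and PRPS2 lie below the line of equal change.

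The rise was seen in each knockdown library. Taken over the tested enzymes, the median value minus the mean of the non-targeting libraries was 0.18, 0.21 and 0.23 in the INA6 knockdown libraries, against 0.04, −0.02 and −0.01 in the INA6 non-targeting libraries. In JJN3 it was 0.17, 0.14 and 0.14 in the knockdown libraries, against −0.01, −0.004 and 0.01 in the non-targeting libraries. Each non-targeting library is part of that mean and so is held close to it, while the knockdown libraries are not part of it. In INA6 30, 29 and 29 of 32 enzymes lay above the non-targeting mean in the 3 knockdown libraries, against 25, 10 and 11 in the non-targeting libraries 1 to 3. In JJN3 31, 29 and 28 of 33 did in the knockdown libraries, against 12, 14 and 23 in the non-targeting ones. Of all tested genes 49.4% to 50.6% lay above that mean in a library of INA6 and 48.4% to 52.1% in one of JJN3. Most of the enzymes lay above the mean in INA6 non-targeting library 1 and JJN3 non-targeting library 3 as well, by small amounts.

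**Figure D5:**
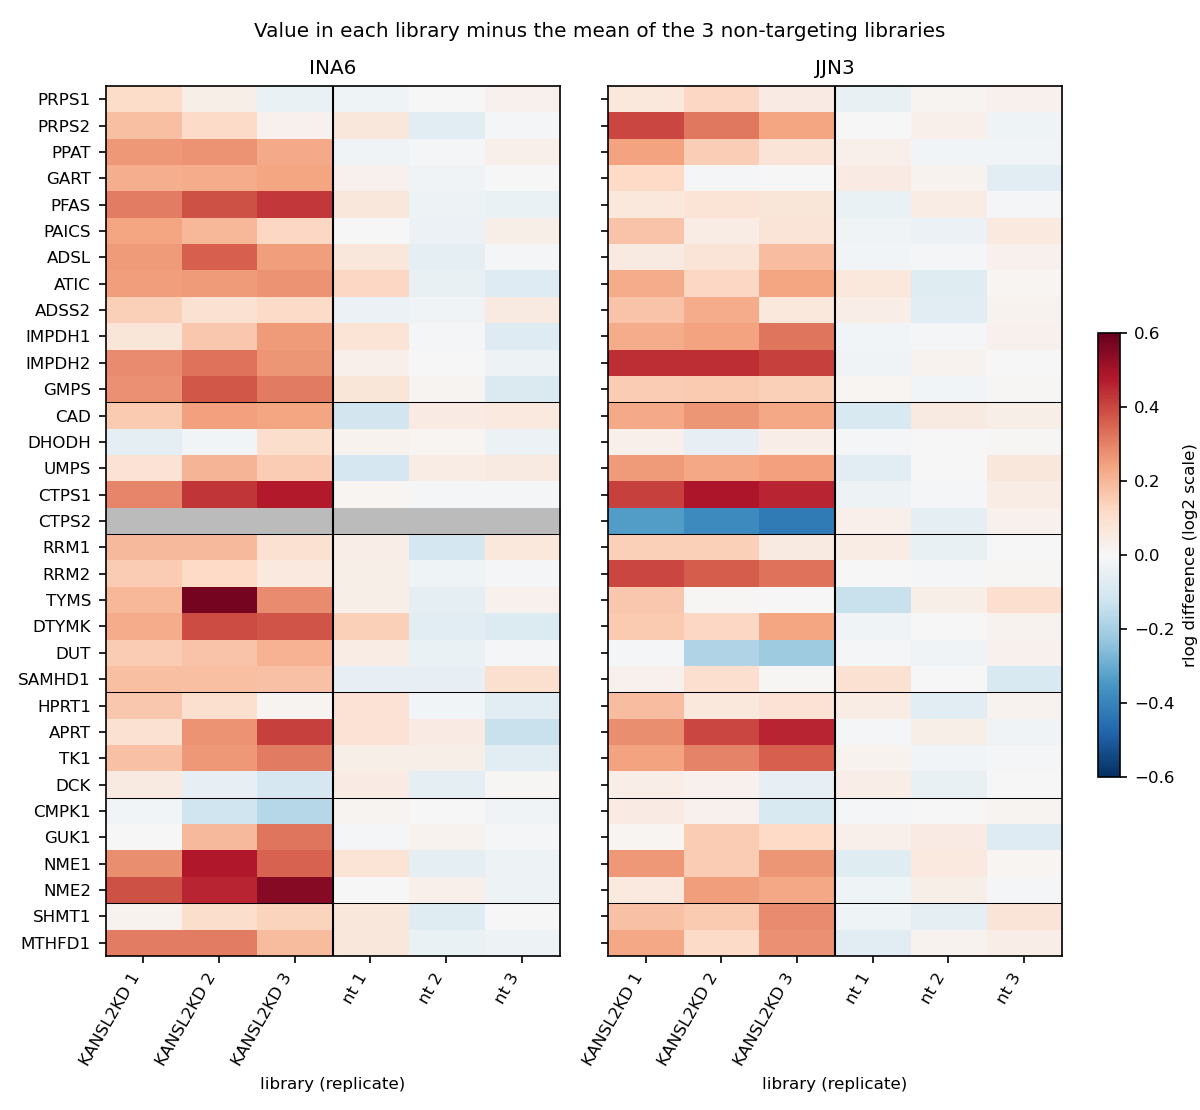
Heat map of each enzyme's rlog value in each library minus the mean of the 3 non-targeting libraries of its line (log2), genes in rows by route, knockdown libraries left of non-targeting ones. The knockdown columns are mostly on the raised side of the scale, with CTPS2 and DUT lower in JJN3.

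MYC and E2F1 encode transcription factors known to act on many genes of these routes, and their values are given beside the enzymes. MYC had 13.76, 13.72 and 13.78 in the INA6 knockdown libraries, against 14.28, 14.29 and 14.26 in the INA6 non-targeting libraries, a difference of −0.52 ± 0.04 (SE), or 69.6% of the non-targeting level, with an adjusted p of 7.66e-10. In JJN3 MYC had 14.40, 14.39 and 14.38 in the knockdown libraries, against 14.75, 14.83 and 14.80 in the non-targeting libraries, a difference of −0.40 ± 0.04 (SE), or 75.5% of the non-targeting level, with an adjusted p of 4.02e-10. MYC was lower in every knockdown library of both lines. E2F1 had 10.84, 10.80 and 11.08 in the INA6 knockdown libraries, against 10.72, 10.64 and 10.49 in the INA6 non-targeting libraries, a difference of 0.29 ± 0.06 (SE), or 22.2% higher, with an adjusted p of 0.000786. In JJN3 E2F1 had 10.07, 10.04 and 10.26 in the knockdown libraries, against 9.64, 9.61 and 9.60 in the non-targeting libraries, a difference of 0.51 ± 0.05 (SE), or 42.1% higher, with an adjusted p of 8.24e-10. The part of either factor in the changes of the enzymes was not tested.

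Another 71 genes of nucleotide metabolism, listed by function, were called in both directions. In INA6 56 passed the filter, of which 16 rose and 12 fell, while 24.7% of all tested genes rose and 24.0% fell, with a median difference of 0.02. In JJN3 55 passed, 17 rose and 14 fell, while 25.5% of all tested genes rose and 25.5% fell, with a median of 0.05. The median of all tested genes was 0.0009 in INA6 and 0.0010 in JJN3. Of the 53 tested in both lines 9 rose in both and 6 fell in both, while 14.2% of all genes tested in both rose in both and 12.3% fell in both. The change differed between the lines for 10 of the 53, INA6 minus JJN3 being above 0 for 4 and below 0 for 6, while 30.0% of all genes differed. By group, folate supply had 5 higher and 1 lower of 12 in INA6 and 6 higher and 1 lower of 11 in JJN3. Salvage and breakdown had 2 higher and 6 lower of 17 in INA6 and 4 higher and 6 lower of 18 in JJN3. Other synthesis, kinase and phosphatase genes had 6 higher and 3 lower of 21 in INA6 and 4 higher and 6 lower of 20 in JJN3. Transporters had 3 higher and 2 lower of 6 in INA6 and 3 higher and 1 lower of 6 in JJN3.

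In folate supply, SLC19A1, the reduced folate carrier, rose by 0.21 (adjusted p = 0.000982) in INA6, a call lost under quantile scaling (0.12, adjusted p = 0.0606), and by 0.38 (adjusted p = 1.53e-08) in JJN3. ALDH1L2, a mitochondrial formyl folate dehydrogenase, fell in INA6, by a difference of −0.33 (adjusted p = 2.99e-05). The mitochondrial enzyme MTHFD2 rose in INA6 by 0.14 (adjusted p = 0.00784), a call lost under quantile scaling (0.07, adjusted p = 0.148) and with cyclic loess normalisation (0.04, adjusted p = 0.469), and PSAT1 of serine synthesis by 0.13 (adjusted p = 0.0141), a call lost under quantile scaling (0.03, adjusted p = 0.575), with cyclic loess normalisation (0.04, adjusted p = 0.423) and without non-targeting library 1 or 3 (difference 0.11 to 0.12, adjusted p = 0.054 to 0.071). In JJN3 FPGS, which adds glutamates to folate, differed by 0.23 (adjusted p = 0.000186), PSPH, also of serine synthesis, by 0.21 (adjusted p = 0.0012) and MTHFD2 by 0.16 (adjusted p = 0.000909), the last lost under quantile scaling (0.07, adjusted p = 0.12) and with cyclic loess normalisation (0.07, adjusted p = 0.152).

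DCTPP1, which clears dCTP and modified deoxynucleotides, rose in both lines, with 10.86, 10.90 and 10.88 in the INA6 knockdown libraries, against 10.49, 10.48 and 10.48 in the INA6 non-targeting libraries (difference 0.39, adjusted p = 1.97e-07). In JJN3 DCTPP1 had 10.94, 10.95 and 11.02 in the knockdown libraries, against 10.56, 10.56 and 10.69 in the non-targeting libraries (difference 0.37, adjusted p = 3.74e-08). NT5M, the mitochondrial deoxynucleotidase, fell in both, with differences of −0.58 (adjusted p = 6.59e-06) in INA6 and −0.54 (adjusted p = 6.37e-09) in JJN3. ADSS1, the muscle form of the ADSS2 enzyme, fell in INA6 (−0.33, adjusted p = 4.8e-05), where ADSS2 was called higher. NUDT16, an inosine diphosphatase, fell in JJN3 (−0.44, adjusted p = 3.56e-09).

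Among salvage and breakdown enzymes ADA2, a secreted adenosine deaminase, fell in both lines (−0.56, adjusted p = 2.37e-07 in INA6 and −0.45, adjusted p = 7.13e-10 in JJN3). TK2, the mitochondrial thymidine kinase, fell in both (−0.22, adjusted p = 0.00214 in INA6 and −0.29, adjusted p = 3e-05 in JJN3), while the cytosolic TK1 rose in both. AMPD1, an AMP deaminase, also fell in both (−0.30, adjusted p = 0.000374 in INA6 and −0.26, adjusted p = 0.000311 in JJN3). UCKL1 of uridine salvage rose in INA6 (0.25, adjusted p = 0.00385) and PNP, the purine nucleoside phosphorylase, in JJN3 (0.25, adjusted p = 9.01e-06).

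Among the transporters SLC25A33, which carries pyrimidine nucleotides into mitochondria, rose in both lines (0.31, adjusted p = 8.21e-05 in INA6 and 0.37, adjusted p = 3.48e-07 in JJN3). SLC25A32, the mitochondrial folate carrier, rose by 0.21 (adjusted p = 0.000425) in INA6 and by 0.18 (adjusted p = 0.00041) in JJN3, the second call being lost under quantile scaling (0.07, adjusted p = 0.155) and with cyclic loess normalisation (0.08, adjusted p = 0.0922). SLC29A2 and SLC29A3, nucleoside transporters, fell in INA6 by differences of −0.21 (adjusted p = 0.00768) and −0.25 (adjusted p = 0.00348). In JJN3 SLC29A1, the main nucleoside transporter of the plasma membrane, rose (0.24, adjusted p = 9.83e-05) and SLC25A36, a mitochondrial pyrimidine carrier, fell (−0.16, adjusted p = 0.00345).

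AK4 and NME4 were called in opposite directions in the 2 lines. AK4, a mitochondrial adenylate kinase, differed by −0.27 (adjusted p = 0.000276) in INA6 and by 0.16 (adjusted p = 0.00438) in JJN3, and the changes differed by −0.43 ± 0.07 (SE; adjusted p = 3.21e-06). NME4, the mitochondrial relative of NME1 and NME2, was higher in INA6 knockdown (0.24, adjusted p = 0.00698) and lower in JJN3 knockdown (−0.40, adjusted p = 1.96e-07), with 0.64 ± 0.09 (SE; adjusted p = 6.64e-08) between lines. NME4's INA6 call was lost without non-targeting library 2 (0.17, adjusted p = 0.0662), and the calls of the difference between lines held in every alternative that tested the gene, 17 for AK4 and 18 for NME4. Of the 22 other genes tested in both lines and named for a small p within a line, 5 differed between the lines. Besides AK4 and NME4 these were ALDH1L2, by −0.36 ± 0.07 (SE; adjusted p = 9.44e-05), NUDT16, by 0.32 ± 0.07 (SE; adjusted p = 0.0002), and SLC19A1, by −0.17 ± 0.06 (SE; adjusted p = 0.0427). ALDH1L2 and NUDT16 held in all 18 alternatives, while SLC19A1 was lost in 11 of 18 (adjusted p up to 0.156).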

How the data were processed

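RNA of 12 libraries in 4 groups of 3 was analysed; samples were grouped by their titles. The 4 chromatin accessibility libraries of JJN3 were not analysed here. For each line the authors deposited a table of log2-scale rlog values. The submitters' processing notes name hg38 and the tools HTSeq, DESeq2, Bowtie2 and Trim Galore, with no versions. The labels' protocols describe random hexamer priming and do not give strandedness. The tables were normalised separately, so tests were made within a table, no level was compared between lines, and levels were not compared between genes. The rlog transform understates changes of genes with few reads. Depth per library is unknown, so no counting interval was computed. No 2 libraries of a line were identical.

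In each line genes whose mean rlog reached 3 were fitted with limma 3.58.1 in R 4.3.3 (lmFit and eBayes, trend on, no block), and p-values, two-sided, were Benjamini-Hochberg adjusted over all tested genes and called below 0.05. Intervals are 95%. The difference between lines was tested against the combined standard error of the 2 fits, their degrees of freedom added, and adjusted over 11137 genes. An exact permutation test on 3 and 3 libraries has a smallest p of 0.1 and was left out. The fits were run on simulated normal values with known shifts added, which checks the calculation and not the p-values of these libraries. Alternatives were median centring, quantile and cyclic loess normalisation, other filters (none, or a mean of at least 5), no variance trend, the replicate block and leaving out each library.

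The genes, the lists and the tests were chosen with earlier results of these data known. Every one of the 33 genes is accounted for; values per library are given for genes called in a line, full statistics for the 3 per route and line with the smallest p and for those that differ between lines, and of the other pathway genes the 4 per group and line with the smallest p are named. A pair of listed genes is not reported here and is in no count of those genes. Coordinates and promoters come from RefSeq, GRCh38.p14.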

Additional observations from a re-analysis of the deposited data

Results flagged for a closer look

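The change after KANSL2 knockdown differed between the lines, by the test of the difference itself, for 7 of the 32 enzymes tested in both. It differed for 10 of the 53 other pathway genes tested in both, while 30.0% of all genes tested differed. Of those other genes 22 were named for a small p within a line, and 5 of the 22 differed. Because they were picked by p, their share cannot be set beside that of all genes. INA6 minus JJN3, the values were 0.31 for DUT, 0.30 for PFAS, 0.30 for TYMS, 0.28 for NME2, 0.19 for GART, −0.25 for RRM2 and −0.21 for PRPS2. For NME4 the value was 0.64, for NUDT16 0.32, for AK4 −0.43, for ALDH1L2 −0.36 and for SLC19A1 −0.17, whose call was lost in 11 of 18 alternatives. DUT, NME4 and AK4 were called in opposite directions in the 2 lines. The JJN3 call of DUT was lost in 5 of 13 alternatives and the INA6 call of NME4 in 1 of 13. Between lines, the calls of GART and TYMS were each lost in 5 of 18 alternatives and that of PRPS2 in 1 of 18. The groups hold 3 libraries each, so single libraries were not tested as outliers.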

How the results depend on the processing

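The titles give replicate numbers and no pairing, and the main fits used none. With each group's mean removed, same-numbered knockdown and non-targeting libraries correlated at −0.18, −0.07 and −0.30 in INA6 and at 0.00, −0.01 and 0.00 in JJN3. Differently numbered ones correlated at −0.07 to 0.24 in INA6 and at −0.06 to 0.06 in JJN3. With 3 libraries per group these values can neither show nor exclude pairing. With the replicate block 23 enzymes rose in INA6 and 20 in JJN3, 2 fell in JJN3 and 7 differed between lines. The calls of 17 of 25 enzymes in INA6, 17 of 22 in JJN3 and 4 of 7 between lines held in every alternative. The median difference in INA6 was 0.24 with centring, 0.17 with quantile and 0.16 with cyclic loess normalisation, and 0.19 to 0.24 without single libraries; in JJN3 it was 0.18, 0.13, 0.12, and 0.14 to 0.16. Enzymes called lower in INA6 were 1 with quantile and with cyclic loess normalisation and 0 to 1 without single libraries; in JJN3, 2 in the values reported, they were 1 with centring, 1 with no filter, 3 with quantile and 3 with cyclic loess normalisation and 1 to 2 without single libraries. Without single libraries 20 to 23 enzymes rose in INA6, 17 to 20 in JJN3, and 5 to 11 differed between lines. Directions turned among small differences: with each library centred on its median 0.0046 for DCK in INA6 and 0.022 for CMPK1 in JJN3; under quantile scaling −0.0092 for PRPS1 in INA6, −0.016 for PAICS in JJN3, −0.0051 for DHODH in JJN3 and −0.051 for DCK in JJN3; with cyclic loess normalisation −0.037 for PRPS1 in INA6, −0.0086 for RRM2 in INA6, −0.0078 for GART in JJN3, −0.010 for PAICS in JJN3, −0.0051 for DHODH in JJN3 and −0.049 for DCK in JJN3. Without single libraries the ranges that cross 0 were −0.0014 to 0.073 for PRPS1 in INA6, −0.035 to 0.044 for DHODH in INA6, −0.075 to 0.00046 for DCK in INA6, −0.0060 to 0.060 for GART in JJN3, −0.0088 to 0.034 for DHODH in JJN3, −0.016 to 0.033 for DCK in JJN3, −0.033 to 0.038 for CMPK1 in JJN3, −0.012 to 0.11 for TYMS in JJN3, −0.083 to 0.017 for CAD between lines, −0.089 to 0.0014 for CTPS1 between lines, −0.055 to 0.024 for HPRT1 between lines, −0.042 to 0.037 for DHODH between lines and −0.0031 to 0.083 for RRM1 between lines. The cause of these shifts was not tested. Unknown depth, 3 libraries per group and shrinkage of low genes limit what small differences can show.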
